A study of Mus musculus with 7 samples.

Results

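Wnt proteins reach the cell through 2 kinds of surface receptor. The Frizzled proteins are seven-pass membrane receptors that bind the lipid-modified Wnt ligand with a cysteine-rich extracellular domain, and LRP5 and LRP6 are single-pass co-receptors whose intracellular tails, once phosphorylated, hold Axin at the membrane and so spare β-catenin from degradation. In the intestinal crypt this pathway maintains the stem cells and the Paneth cells, and the Frizzled proteins on these cells are removed by the ubiquitin ligases RNF43 and ZNRF3 unless R-spondin is present. The transcripts of 10 of these receptors, Fzd1 to Fzd8, Lrp5 and Lrp6, were examined here. They were taken by gene name from the 38293 genes of the table, and each name matched 1 gene.

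RNA was sequenced from scrapings of the ileum, which take along the epithelium and the lamina propria but no muscle layer, of male C57BL/6NRJ mice. Their stated age was 8 weeks, and the age at sampling, after the diets, was not given. All mice first received the purified AIN93G control diet, high in fat and low in calcium, for 1 week. For the next 2 weeks, 4 mice stayed on the normal cystine diet (normal cys) and 3 mice received a low cystine diet (low cys), in which alanine took the place of the added L-cystine. Total cystine made up 0.38% of the normal and 0.08% of the low cystine diet, and fat gave 40% of the energy in both. Both diets were low in calcium. Each library came from 1 individually housed mouse, and only wild-type animals were used, so no allele or transgene differed between the groups.

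Total counts per library ranged from 19712355 to 22412703 for the 4 normal cys mice and from 14888760 to 21942518 for the 3 low cys mice. The defining markers of ileal epithelium were abundant, with mean values of 5392 and 4030 CPM (counts scaled to the normalized library size) for Fabp6 and of 2673 and 2168 CPM for Epcam on the normal and low cystine diet. The glial marker Sox10 had 0 counts in every library. Of the 10 receptor genes, 9 passed the filter on low counts and were tested, and Fzd3 did not pass. In edgeR's quasi-likelihood test over 14869 genes, 0 genes (0%) had an adjusted p under 0.05, so no receptor gene did. At an unadjusted p under 0.05 there were 396 higher genes (2.66%) and 421 lower genes (2.83%) in the low cys libraries. DESeq2 called 16 genes over the whole table and limma-voom called 0, and neither called a receptor gene.

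The promoters of 4 of the 10 genes, Fzd1, Fzd4, Fzd5 and Fzd7, were matched in the RefSeq table (GRCm38.p6). Those of Fzd5 and Fzd7, the most abundant Frizzled transcripts in these libraries, and of Fzd1, which follows them in level, are shown because they differ widely in base composition. Each line gives the 250 bases before the annotated gene start on the strand of the gene, at chr1:64737751-64738000 (minus strand) for Fzd5, chr1:59481897-59482146 (plus strand) for Fzd7 and chr5:4758217-4758466 (minus strand) for Fzd1. Capitals mark the GC box GGGCGG and the TCF/LEF letters CTTTGA, each on either strand (CCGCCC and TCAAAG on the other).
Fzd5: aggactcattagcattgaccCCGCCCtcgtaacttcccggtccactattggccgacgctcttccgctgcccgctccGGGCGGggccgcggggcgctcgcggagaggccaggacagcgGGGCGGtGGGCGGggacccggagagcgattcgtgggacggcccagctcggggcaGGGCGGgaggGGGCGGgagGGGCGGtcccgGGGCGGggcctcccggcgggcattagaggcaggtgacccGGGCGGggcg
Fzd7: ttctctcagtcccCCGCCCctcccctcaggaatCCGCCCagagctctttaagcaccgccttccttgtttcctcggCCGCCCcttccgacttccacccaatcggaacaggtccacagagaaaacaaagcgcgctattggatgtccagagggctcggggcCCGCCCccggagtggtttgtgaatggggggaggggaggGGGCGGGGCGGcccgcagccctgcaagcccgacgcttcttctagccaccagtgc
Fzd1: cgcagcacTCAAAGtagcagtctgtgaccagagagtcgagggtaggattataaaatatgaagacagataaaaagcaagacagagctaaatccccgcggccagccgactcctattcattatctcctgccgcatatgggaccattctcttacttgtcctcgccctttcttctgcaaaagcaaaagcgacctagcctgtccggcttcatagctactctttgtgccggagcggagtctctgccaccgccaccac
The Fzd5 window held 9 GC boxes and 32 CpG pairs, the Fzd7 window 6 and 17, and the Fzd1 window 0 and 12. The Fzd4 window, not shown, held 7 GC boxes and 25 CpG pairs although Fzd4 was less abundant than Fzd1, so the order of the 4 genes by GC boxes was not their order by level. At least 1 GC box was present in 32.7% of all 32851 promoter windows of this length, and the TCF/LEF letters, which among these 4 windows occurred once in Fzd1 alone, were present in 13.8%. These are matches of letters, and binding was not measured.

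Levels were compared between genes as CPM per kb of exon, a scale on which a long gene gains nothing from its length. Fzd5, which is required for Paneth cell maturation in the mouse, lies on chromosome 1 from 64730560 to 64737750 (GRCm38) and stood first with 23.4 ± 1.56 CPM per kb (SD, n = 7 libraries), above 81.6% of the genes tested. The co-receptors followed, with 9.15 ± 1.56 CPM per kb for Lrp6 and 7.66 ± 1.13 for Lrp5 (SD, n = 7). Lrp6 was above Lrp5 in 5 of the 7 libraries, so the levels of the co-receptors did not differ beyond their spread. The next Frizzled transcript was Fzd7, a receptor known from Lgr5-positive crypt stem cells, with 2.55 ± 0.806 CPM per kb (SD, n = 7).

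The remaining Frizzled genes were expressed at low levels. Fzd1 had 1.27 ± 0.297, Fzd8 1.01 ± 0.382 and Fzd6 0.865 ± 0.319 CPM per kb (SD, n = 7), and the ranges of these 3 genes overlapped. Fzd4, known as the receptor of the ligand norrin in blood vessels, had 0.306 ± 0.0553 CPM per kb (SD, n = 7), below Fzd6 in every library. Fzd2 and Fzd3 came last with 0.136 ± 0.100 and 0.0875 ± 0.0594 CPM per kb (SD, n = 7), and Fzd2 was above Fzd3 in 5 of the 7 libraries. Each step from Fzd5 to Lrp6 (2.56 times), from Lrp5 to Fzd7 (3.01 times) and from Fzd6 to Fzd4 (2.82 times) separated the genes in 7 of 7 libraries without overlap of their ranges. The plot of levels per kb shows these steps on a log scale.

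**Figure D1:**
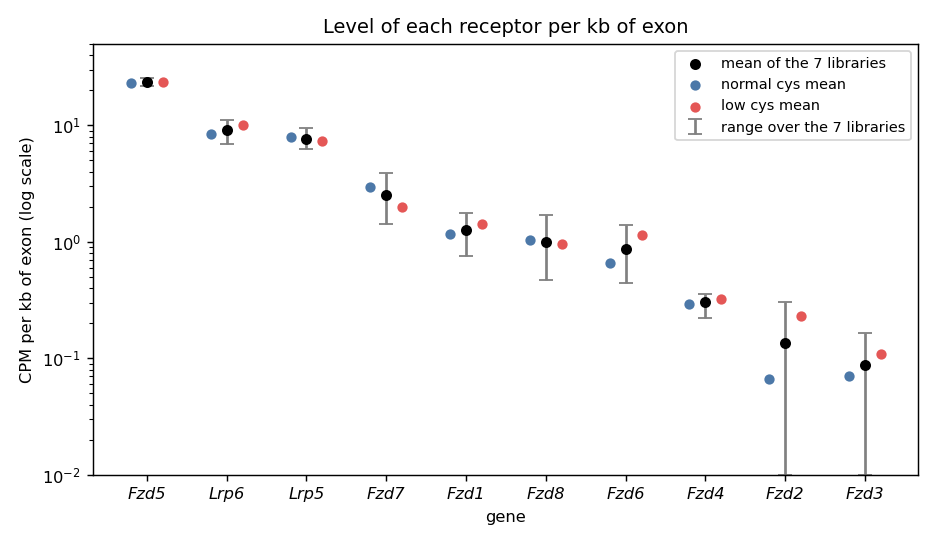
Level of each receptor gene in CPM per kb of exon (log axis), in order of the mean over the 7 libraries (black), with the range over the libraries (grey bars) and the mean of each diet (blue normal cys, red low cys). Fzd5 lies at 23.4 CPM per kb and Fzd3 at 0.0875, and the bars of Fzd2 and Fzd3 run to the bottom of the axis because each had 0 counts in library SI9.

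Fzd5 made up most of the Frizzled transcripts in each mouse. Of the length-scaled counts of Fzd1 to Fzd8, it held 78.7% ± 3.32 in normal cys mice (SD, n = 4) and 79.4% ± 0.611 in low cys mice (SD, n = 3), with a range of 75.6% to 82.8% over the libraries. Without scaling to length its share was 85.5% and 86.3%. Fzd7 held 10.01% ± 2.05 (SD, n = 4) and 6.58% ± 1.52 (SD, n = 3), and Fzd6 2.27% ± 0.601 (SD, n = 4) and 3.82% ± 0.962 (SD, n = 3). Summed over the 8 genes, the Frizzled level was 29.4 ± 1.52 CPM per kb (SD, n = 4) in normal cys mice and 29.9 ± 2.07 (SD, n = 3) in low cys mice, which differed by less than the SD of either diet.

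**Figure D2:**
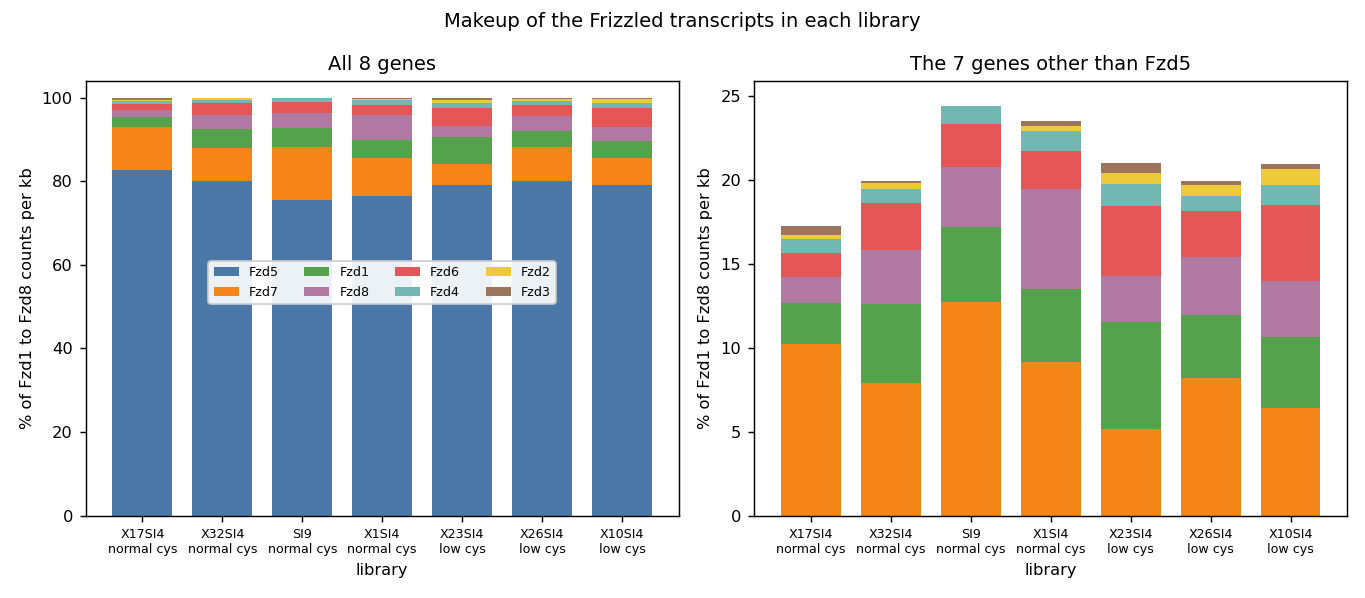
Share of each Frizzled gene in the summed CPM per kb of Fzd1 to Fzd8, in percent, for each library (stacked bars, left all 8 genes, right without Fzd5). Fzd5 takes between 75.6% and 82.8% of each bar on the left, and on the right the Fzd7 segment ranges from 5.14% in low cys library X23SI4 to 12.7% in normal cys library SI9.

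The diets were then compared for each receptor, to ask whether the receptor genes take part in the difference in Wnt signaling that the study addresses. Fzd2 and Fzd6 were higher and Fzd7 was lower in the low cys libraries at the level of the means, whereas Fzd5, the receptor with most of the transcripts, was nearly equal. In scraped tissue, a lower value can come from fewer cells of a type or from less RNA per cell, which cannot be told apart.

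Fzd2, a single-exon gene on chromosome 11 from 102604431 to 102608058, had 5, 8, 0 and 7 raw counts in normal cys libraries X17SI4, X32SI4, SI9 and X1SI4. It had 16, 12 and 17 counts in low cys libraries X23SI4, X26SI4 and X10SI4. Every low cys library thus lay above every normal cys library, and the 0 counts of SI9 allow a level of up to 0.158 CPM. The mean level was 0.240 ± 0.166 CPM (SD, n = 4) in normal cys mice and 0.833 ± 0.233 CPM (SD, n = 3) in low cys mice. The log2 fold change in edgeR was 1.74 (standard error 0.675, 95% interval 0.21 to 3.26, adjusted p = 0.794). For counting error alone, the summed 45 against 20 counts gave a ratio of 3.26 per normalized library size, with an exact 95% interval of 1.88 to 5.82. The two-sided exact permutation test over the 7 libraries gave p = 0.0286, the smallest p it allows. In edgeR, Fzd2 passed the filter on low counts only through the low cys libraries, since its highest count on the normal cystine diet was 8. The intervals and the permutation p of Fzd2 are therefore given as a description only and are no support for a diet difference.

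Fzd6, which in mammals is best known for planar cell polarity, lies on chromosome 15 from 39006280 to 39038186. It had 35, 71, 61 and 56 raw counts in normal cys libraries X17SI4, X32SI4, SI9 and X1SI4, and 116, 57 and 90 in low cys libraries X23SI4, X26SI4 and X10SI4. Scaled to library size, these were 1.83, 3.22, 3.21 and 2.68 CPM against 4.73, 3.56 and 5.80 CPM, so the diets did not overlap, although X26SI4 was close to the normal cys libraries. The log2 fold change was 0.78 (edgeR, standard error 0.284, 95% interval 0.14 to 1.42, adjusted p = 0.794), and the exact permutation test gave p = 0.0286 (two-sided).

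Fzd7, on chromosome 1 from 59482147 to 59486947, had 15.1, 10.4, 18.7 and 12.7 CPM in normal cys libraries X17SI4, X32SI4, SI9 and X1SI4. In low cys libraries X23SI4, X26SI4 and X10SI4 it had 6.82, 12.4 and 9.47 CPM. Of the low cys libraries, 2 lay below every normal cys library, and X26SI4 lay between them. The log2 fold change was -0.58 (edgeR, standard error 0.260, 95% interval -1.16 to 0.01, adjusted p = 0.794), and the exact permutation test gave p = 0.114 (two-sided). With between 147 and 355 counts per library, Fzd7 had more counts than Fzd6 (35 to 116) and far more than Fzd2 (0 to 17).

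Among the receptors that passed the filter whichever diet was high, Fzd6 was thus the 1 whose diets did not overlap. Fzd2 did not overlap either, but since it was tested only through its low cys counts, its call is given as a description. Over all genes tested, 3.32% lay with every low cys library above, and 3.51% with every low cys library below, all normal cys libraries. Fzd6 and Fzd2 were also the receptor genes with an unadjusted edgeR p under 0.05, a direction and threshold passed by 2.66% of all genes. With at least 10 counts in every library, Fzd6 alone was left. The count of 2 rested on single libraries. It was 0 without low cys library X10SI4, 1 (Fzd2) without low cys library X23SI4, and 4 (Fzd2, Fzd6, Fzd7 and Lrp6) without normal cys library X1SI4. Without low cys library X26SI4 it was again 2, but these were Fzd6 and Fzd7. DESeq2, limma-voom, edgeR without a filter and edgeR without normal cys library X32SI4 added Fzd7 to Fzd2 and Fzd6, and the total count in place of TMM added Lrp6. No receptor passed an adjusted p of 0.05 under these or the other alternatives, and the lowest adjusted p of any was 0.412, that of Fzd6 without normal cys library X17SI4 (edgeR). The median log2 fold change of the 9 tested receptors was 0.16, beside 0.01 for all genes tested. These 9 include Fzd2 (1.74), which the filter let in only through its low cys counts, so this median is a description too.

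**Figure D3:**
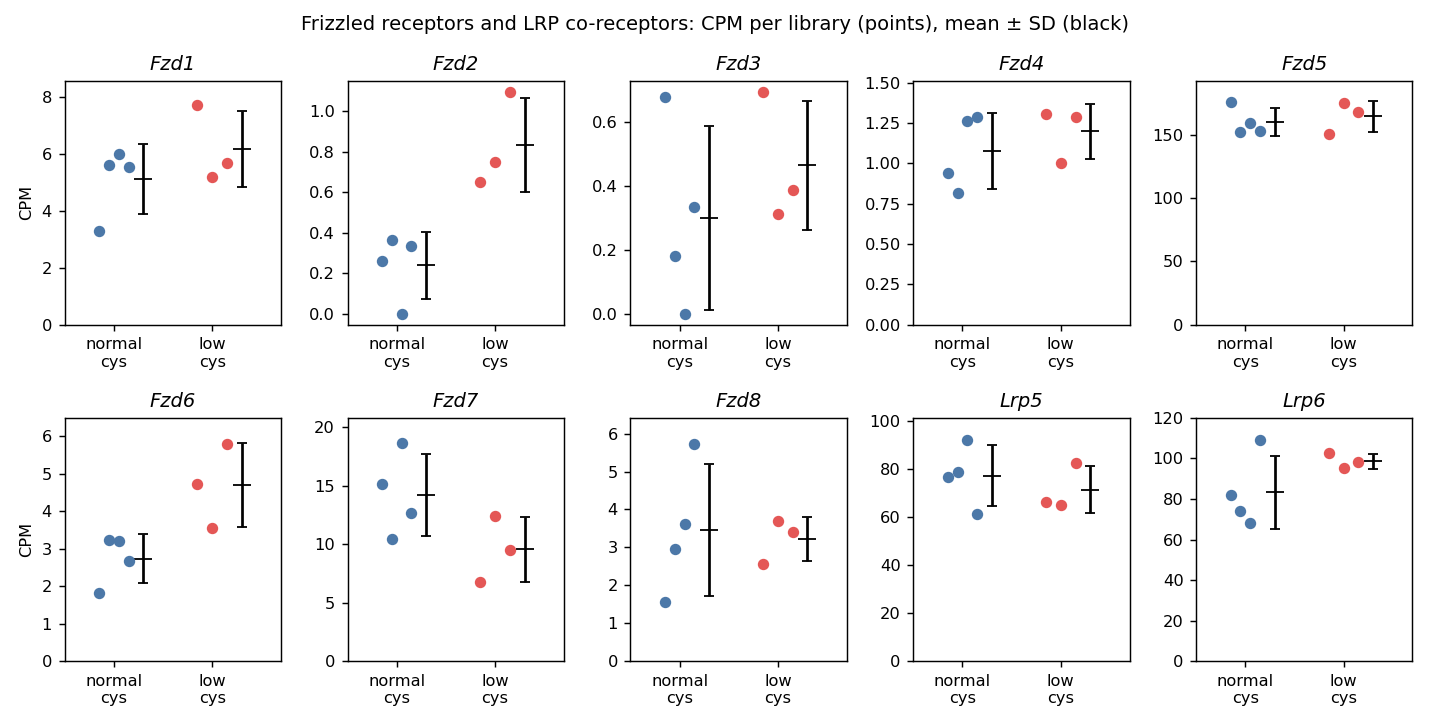
CPM of the 10 receptor genes in each library (points, blue normal cys with n = 4, red low cys with n = 3) with the mean and SD of each diet (black), on a linear axis for each gene. The red points lie above all blue points in the Fzd2 and Fzd6 panels, and the points of the diets overlap in the other 8 panels.

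Fzd5 had nearly equal levels on both diets. It had between 3032 and 3363 raw counts in the normal cys and between 2603 and 3694 in the low cys libraries, or 176, 152, 159 and 152 CPM against 151, 174 and 168 CPM. The log2 fold change was 0.04 (edgeR, standard error 0.119, adjusted p = 0.936), and its 95% interval of -0.23 to 0.31 corresponds to a level between 0.853 and 1.24 times that on the normal cystine diet.

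The co-receptors had opposite signs. Lrp6, on chromosome 6 from 134446476 to 134566965, had 81.8, 73.9, 68.3 and 109 CPM in normal cys libraries X17SI4, X32SI4, SI9 and X1SI4, and 102.5, 95.3 and 98.1 CPM in low cys libraries X23SI4, X26SI4 and X10SI4. The low cys libraries thus lay close together and above 3 of the 4 normal cys libraries, and X1SI4 lay above them. The log2 fold change was 0.24 (edgeR, standard error 0.166, 95% interval -0.13 to 0.62, adjusted p = 0.794). Without X1SI4 it was 0.40. Lrp5, on chromosome 19 from 3584828 to 3686564, had 76.6, 78.6, 92.2 and 61.2 CPM against 66.2, 65.2 and 82.5 CPM in the same order of libraries, which overlapped. Its log2 fold change was -0.11 (edgeR, standard error 0.161, 95% interval -0.48 to 0.25, adjusted p = 0.861). The sum of both co-receptors was 16.4 ± 0.740 CPM per kb (SD, n = 4) in normal cys mice and 17.4 ± 1.04 (SD, n = 3) in low cys mice.

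The other 4 Frizzled genes overlapped between the diets. Fzd1, a single-exon gene on chromosome 5 from 4753842 to 4758216, had 63, 124, 114 and 116 counts in normal cys libraries X17SI4, X32SI4, SI9 and X1SI4 and 189, 83 and 88 counts in low cys libraries X23SI4, X26SI4 and X10SI4. In CPM its low value in X17SI4 (3.29) and its high value in X23SI4 (7.71) stood away from the other 5 libraries, which had between 5.19 and 5.99. Its log2 fold change was 0.28 (edgeR, standard error 0.262, 95% interval -0.31 to 0.87, adjusted p = 0.817).

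Fzd8 had 1.57, 2.95, 3.63 and 5.73 CPM in the normal cys libraries, in the order above, and 2.57, 3.69 and 3.42 CPM in the low cys libraries, which lay within the normal cys range. Its log2 fold change was -0.11 (edgeR, standard error 0.401, 95% interval -1.02 to 0.79, adjusted p = 0.944), and it was 0.24 without X1SI4, its highest library. Fzd4 had between 18 and 27 counts in the normal cys and between 16 and 32 in the low cys libraries, with a log2 fold change of 0.16 (edgeR, standard error 0.331, 95% interval -0.59 to 0.91, adjusted p = 0.902). Fzd3, another receptor of planar cell polarity, had 13, 4, 0 and 7 counts against 17, 5 and 6, and was at 0.299 ± 0.288 CPM (SD, n = 4) and 0.464 ± 0.202 CPM (SD, n = 3). The exact 95% interval of its count ratio, for counting error alone, was 0.944 to 3.04, and no difference was found.

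**Figure D4:**
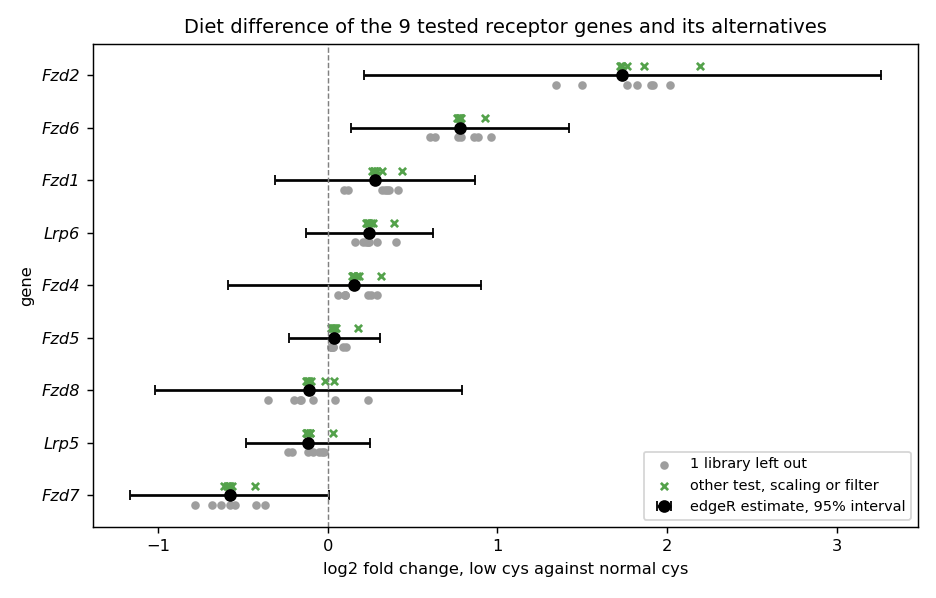
Log2 fold change of low cys against normal cys for the 9 tested receptor genes (black points, bars show the 95% interval in edgeR), with the values after leaving out 1 library each (grey points) and under another test, scaling or filter (green crosses). The interval of Fzd6 (0.14 to 1.42) does not include 0, and the alternatives cross 0 for Fzd8 and Lrp5. That of Fzd2 (0.21 to 3.26) does not include 0 either, but Fzd2 passed the filter only through its low cys counts, so it is a description.

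The 2 remaining Frizzled genes of the mouse genome, which are not among the 10, had few counts, as Fzd2 and Fzd3 did. Fzd9 had 8, 2, 10 and 0 counts in the normal cys and 19, 6 and 16 in the low cys libraries, with a log2 fold change of 1.505 (edgeR, standard error 0.827, 95% interval -0.36 to 3.37, adjusted p = 0.794). Fzd10 had at most 4 counts in a normal cys and at most 10 in a low cys library and was not tested.

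Around the receptors, 55 further genes of the pathway were described, and 34 of them passed the filter on low counts. None had an adjusted p under 0.05 in edgeR. At an unadjusted p under 0.05, 1 was higher and 0 were lower, and 17 had a higher and 17 a lower estimate, with a median log2 fold change of 0.01. The higher gene was Nkd1, an antagonist that binds Dishevelled, with 0.403 ± 0.0802 CPM (SD, n = 4) in normal cys mice and 0.944 ± 0.310 CPM (SD, n = 3) in low cys mice. Its log2 fold change was 1.20 (edgeR, standard error 0.401, adjusted p = 0.794), and it was the 1 gene of these 34 whose diets did not overlap. It had 6, 11, 7 and 9 counts in the normal cys and 21, 11 and 20 in the low cys libraries. Like Fzd2, it passed the filter only through the low cys libraries, so its call is given as a description. The numbers of 1 gene at this threshold and 1 gene without overlap are near the shares over all genes, 2.66% and 3.32%. They are no result about the pathway.

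By role, the genes that act next to the receptors showed few differences. Of the 5 genes of receptor turnover (Rnf43, Znrf3 and the R-spondin receptors Lgr4 to Lgr6), 4 were tested and 2 had a higher estimate. Of the 7 other Wnt receptors, which besides Fzd9 and Fzd10 are Ror1, Ror2, Ryk, Ptk7 and Lrp4, 5 were tested and 3 had a higher estimate, with a median of 0.51. Of the 15 secreted antagonists and Kremen receptors, 4 were tested and all 4 had a higher estimate, with a median of 0.32. Most of those with too few counts to be tested had a lower mean in the low cys libraries. The summed level of the 15 overlapped between the diets (19.3 to 26.2 against 21.6 to 26.3 CPM). The LRP inhibitor Dkk1 had 0 counts in every library. Of the 10 chaperones and complex partners, which include Mesdc2, the chaperone of LRP5 and LRP6, 4 were tested and 3 had a higher estimate, with a median of 0.23. Of the 18 genes of the intracellular complex, 17 were tested and 12 had a lower estimate, with a median of -0.08.

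Marker genes of several cell types had higher estimates in the low cys libraries, as Fzd2 and Fzd6 did. The summed level of 10 stroma markers was between 27.3 and 33.6 CPM in the normal cys and between 44.02 and 48.6 CPM in the low cys libraries, so the diets did not overlap. Of the 9 stroma markers tested, 9 had a higher estimate and 3 an unadjusted edgeR p under 0.05, where 2.66% of all genes were higher at this threshold. These were Dcn, a matrix proteoglycan, Col3a1 and Col6a1, with log2 fold changes of 1.55, 1.58 and 1.38 (edgeR, adjusted p = 0.794 for each). The defining stroma markers Col1a1 and Pdgfra were present in every library, with between 3 and 34 and between 7 and 31 counts. The 7 endothelium markers summed to between 6.83 and 9.04 CPM in the normal cys and between 9.80 and 14.1 CPM in the low cys libraries, and 6 of the 6 tested had a higher estimate. The 7 smooth muscle markers summed to between 3.01 and 14.1 CPM and between 6.57 and 45.5 CPM, so the diets overlapped. The highest value was that of low cys library X26SI4. Low cys library X23SI4 (6.57 CPM) lay below normal cys libraries X17SI4 (14.1 CPM) and X32SI4 (8.18 CPM). All 7 markers had a higher estimate, and Des, Myl9 and Actg2 had an unadjusted edgeR p under 0.05, beside the same 2.66% of all genes. Leukocyte markers (54.3 to 97.06 against 74.3 to 115.1 CPM) overlapped. Among the low cys libraries, the stroma sum was highest in X26SI4 (48.6 CPM) and lowest in X10SI4 (44.02 CPM). Fzd6 had 3.56 and 5.80 CPM and Fzd2 0.750 and 1.10 CPM in these libraries. Single stroma markers were not all ordered as the sum. Dcn was likewise highest in X26SI4 (6.87 CPM) and lowest in X10SI4 (3.61 CPM). Col3a1 and Col6a1 were highest in X10SI4 (6.32 and 4.32 CPM). Crypt base and Paneth cell markers, given below, also had higher estimates. The part of any of these cell types in the difference of Fzd2 and Fzd6 was not tested.

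Most enterocyte genes had lower estimates in the low cys libraries, as Fzd7 did. The 8 markers of enterocytes and ileum summed to between 19009 and 22490 CPM in the normal cys and between 13547 and 18929 CPM in the low cys libraries, so the diets did not overlap. X23SI4 was lowest in both this sum and Fzd7. Among the normal cys libraries, X17SI4 had the lowest sum and 15.1 CPM of Fzd7, and X1SI4 had the highest sum and 12.7 CPM of Fzd7. Of these 8 markers, 7 had a lower estimate, and Krt20, a keratin of differentiated enterocytes, had an unadjusted edgeR p under 0.05, as did 2.83% of all genes in the lower direction, with a log2 fold change of -0.41 (edgeR, adjusted p = 0.794). Single markers were not all ordered as the sum in the normal cys libraries. Fabp6 was lowest in X17SI4 (4048 CPM) and highest in X1SI4 (7454 CPM). Krt20 was highest in X17SI4 (3204 CPM) and lowest in X32SI4 (2525 CPM). The part of these cells in the difference of Fzd7 was not tested. Markers of the crypt base and proliferation (118.0 to 306.7 against 191.0 to 347.1 CPM) and of Paneth cells (701 to 4642 against 2810 to 5073 CPM) overlapped between the diets, with a higher estimate in 7 of 7 and 6 of 6 genes and a median log2 fold change of 0.71 and 0.75.

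**Figure D5:**
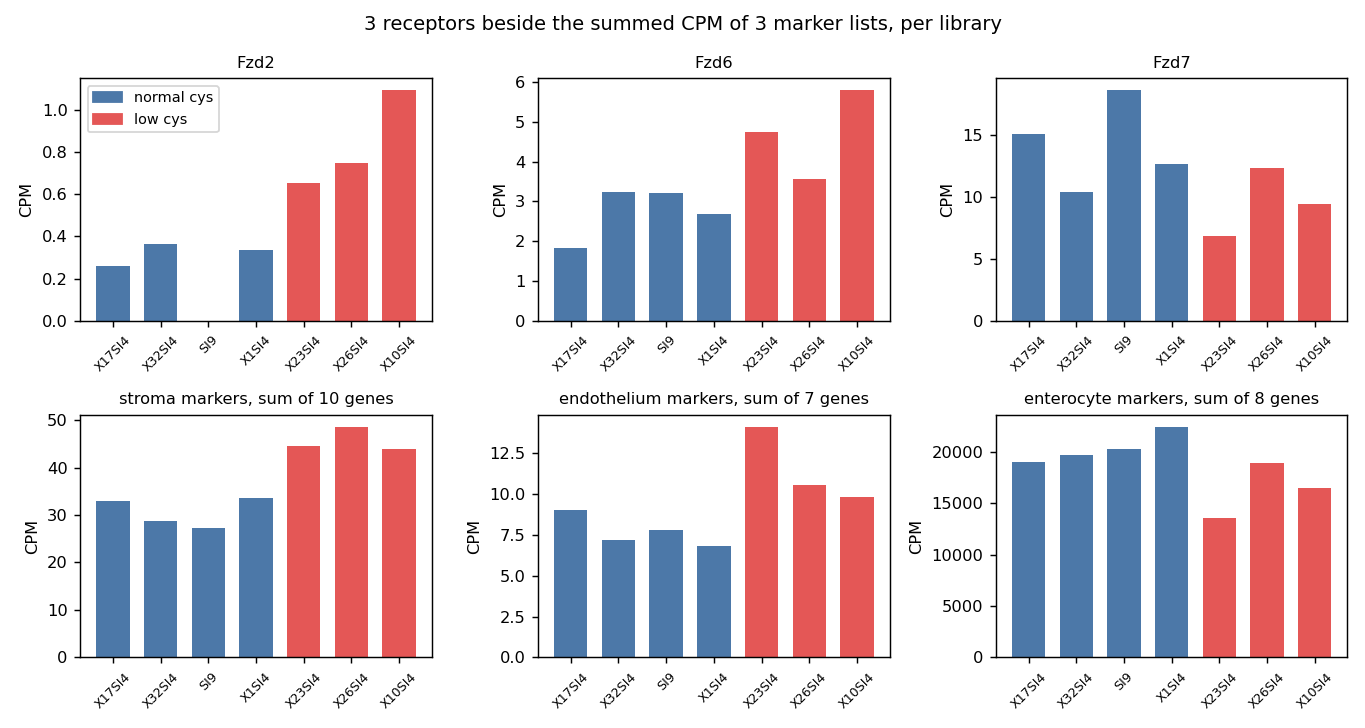
CPM of Fzd2, Fzd6 and Fzd7 (top) and the summed CPM of 10 stroma, 7 endothelium and 8 enterocyte markers (bottom) in each library (bars, blue normal cys, red low cys, axes from 0). The red bars lie above the blue bars for Fzd2, Fzd6, stroma and endothelium, below them for the enterocyte markers, and overlap for Fzd7.

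The profile of each tested receptor over the 7 libraries was also set beside those of the 86 tested genes of the other lists, as the root mean square difference of log2 CPM after each gene was centred on its mean. Nkd1 was nearest to both Fzd6 (0.22, where the median gene differed by 0.66) and Fzd2 (0.71 against 1.12), and the collagen Col3a1 was next for Fzd2 (0.75). Fzd2 and Nkd1 had both passed the filter only through their low cys counts. Fzd7 was nearest to the enterocyte genes Krt20 (0.22) and Vil1 (0.25, median 0.76). Fzd5 and Lrp5 were nearest to Cdh1, which encodes E-cadherin (0.10 and 0.16). Lrp6 was nearest to Apc (0.13), Fzd8 to Shisa2 (0.34), Fzd4 to Lrp4 (0.13) and Fzd1 to Ryk (0.29). The values of the receptors that vary little, such as Fzd5, are small for any gene that also varies little, and all profiles share the same 7 libraries. A profile without any variation would differ by 0.33 from Fzd1, by 0.20 from Lrp5 and by 0.09 from Fzd5. The nearness of Ryk to Fzd1 and of Cdh1 to Lrp5 and Fzd5 therefore says little.

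Few reads of the receptor genes could have been counted for another gene of the same strand. No 50-base stretch, the length of the reads, of Fzd1, Fzd2, Fzd7 or Fzd8 occurred in a transcript of another gene of GENCODE M21, and in Fzd3, Fzd4, Lrp5 and Lrp6 at most 0.722% did so on the same strand. Transcripts from the opposite strand held 16.4% of the stretches of Fzd5 (Gm38058) and 2.12% of those of Fzd6 (Gm26704). The libraries kept the strand, but the strand setting of the counting is not given in the sources used here.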

How the data were processed

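The authors trimmed the reads with Trim Galore, removed ribosomal reads, aligned the rest to GRCm38 with STAR and deposited raw counts per gene on the exons of the Ensembl annotation, made with featureCounts and without normalization. The table holds 1 column for each of the 7 libraries, and groups follow the diet in the sample labels. How multi-mapping reads were counted is not given in the sources used here.

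From these counts, genes were filtered with filterByExpr (minimum count 10, minimum total 15), normalized by TMM and tested in edgeR 4.0.16 (R 4.3.3) with the robust quasi-likelihood F-test and no covariate. P-values were adjusted by Benjamini-Hochberg over all 14869 genes. Standard errors were taken from the fold change and its F statistic. CPM values use the TMM-scaled library size, and log2 CPM a prior count of 2. Levels per kb use the exon length in the deposited table. Intervals for summed counts are exact at 95%, and limits for 0 counts use 3 counts per library. Both cover counting error only. Single values were compared by two-sided exact permutation of the 7 libraries on the difference of mean CPM, for which 0.0286 is the smallest p. Alternatives were DESeq2 1.42.0, limma-voom (limma 3.58.1), other scalings and filters, a non-robust fit and leaving out each library. The methods were tested on simulated data.

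The receptor genes, the lists of pathway and marker genes and the tests were chosen with earlier results of these data known. Besides the 10 receptors, Fzd9 and Fzd10, the genes named are up to 3 of each list with the smallest unadjusted p under 0.05 and the 2 nearest profiles, and a few others to say what a list holds. The labels give no batch, so none was examined. The summed level of the enteric neuron and glia markers is not reported here.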

Additional observations from a re-analysis of the deposited data

Results flagged for a closer look

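For the 4 normal cys libraries, the gap between an extreme library and the next, as a share of the spread of all 4, was computed for 25 values (the 10 receptor genes, the Frizzled sum, the ratio of Lrp6 to Lrp5 and 13 list sums). It exceeded Dixon's 95% critical value for 1 of them, where chance gives about 1.25. This was Fzd1 in normal cys library X17SI4, with 3.29 CPM against 5.54 to 5.99 CPM in the other 3 libraries and a gap of 0.833 of the range. The cause was not tested.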

How the results depend on the processing

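Of 125 fold changes of the 9 tested receptor genes recomputed under the alternatives, 121 kept their direction and their side of the adjusted threshold. The other 4 changed sign, with values between 0.031 and 0.24. With the total count in place of TMM, which raised the median log2 fold change of all genes to 0.15, those of Fzd8 and Lrp5 were 0.038 and 0.031. Fzd8 was also positive without normal cys library X1SI4 (0.24) and without low cys library X23SI4 (0.043), and its values with 1 library left out ranged from -0.35 to 0.24. Leaving out each library in turn, the number of receptor genes with an unadjusted p under 0.05 ranged from 0 to 4, that of the further pathway genes from 1 to 3 and that of all genes with an adjusted p under 0.05 from 0 to 1. DESeq2 called 16 genes over the whole table. A minimum of 10 counts in every library, under which Fzd2 and Nkd1 are no longer tested, left 1 receptor and 0 pathway genes at an unadjusted p under 0.05. The number of pathway genes was 3 with limma-voom and 2 without a filter, and the cause was not tested. Shares of Fzd5 of 78.7% and 79.4% per kb became 85.5% and 86.3% in raw counts. No paired analysis was possible because the labels give no replicate numbers that link the diets. Depth limits Fzd2, Fzd3 and Fzd4, which had at most 32 counts in any library.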

Other observations

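The ratio of Lrp6 to Lrp5 per kb ranged from 0.734 in SI9 to 1.77 in X1SI4 among the normal cys libraries and from 1.18 to 1.54 in the low cys libraries, so mice on the same diet differed in it more than the diets did. The ratio of Fzd6 to Fzd7 per kb was 0.141, 0.359, 0.200 and 0.245 in normal cys libraries X17SI4, X32SI4, SI9 and X1SI4 and 0.807, 0.334 and 0.711 in low cys libraries X23SI4, X26SI4 and X10SI4, so it overlapped in X26SI4 alone. Normal cys library X17SI4, which had the lowest Fzd1, Fzd6 and Fzd8 of its diet, had the highest summed Paneth cell (4642 CPM) and crypt base and proliferation markers (306.7 CPM) of the normal cys libraries.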
